A study of Mus musculus with 6 samples.

Results

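The genes described here are 10 mouse genes of antioxidant defence and NADPH supply: the NRF2 targets Nqo1, Hmox1, Txnrd1, Srxn1 and Gsr, the pentose phosphate enzymes G6pdx, Pgd, Tkt and Taldo1, and the malic enzyme gene Me1. They were taken by name from an expression table of 21436 genes, and all 10 were found. The table comes from wild-type 3T3-L1 cells, a line of mouse embryonic fibroblasts that can become adipocytes, studied by RNA sequencing in 6 libraries. In 3 co-culture libraries, human umbilical cord mesenchymal stem cells lay in the upper chamber of a Transwell, behind a membrane with 0.4 µm pores. In the 3 libraries of cells alone the upper chamber held no cells. Both groups spent 72 h in the same adipogenic medium, which contained 2 µM rosiglitazone, 1 µM dexamethasone, 0.5 mM IBMX, 10 mg/L insulin and 10% fetal bovine serum. There was no group without this medium, so the comparison concerns the human cells only.

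NRF2, encoded by Nfe2l2, is a transcription factor that KEAP1 holds in the cytoplasm and marks for degradation. When oxidants or electrophiles modify KEAP1, NRF2 accumulates, pairs with small MAF proteins and binds antioxidant response elements, a class of site that the repressor BACH1 also occupies. Many of its targets use or make NADPH. Thioredoxin reductase, glutathione reductase and NQO1 spend it, and the oxidative branch of the pentose phosphate pathway and malic enzyme replenish it. In fat cells the same NADPH also feeds fatty acid synthesis.

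In mm10 coordinates, counted from 1 and taken from RefSeq on GRCm38.p6, Nqo1 lies at chr8:107388225-107403205, Hmox1 at chr8:75093618-75100593 and Gsr at chr8:33653238-33698162. Txnrd1 lies at chr10:82833951-82897724 and Srxn1 at chr2:152105524-152111376. Of the pentose phosphate genes, G6pdx is X-linked at chrX:74409483-74428880, Pgd is at chr4:149149991-149166705, Tkt at chr14:30549131-30574724 and Taldo1 at chr7:141392160-141402976. Me1 lies at chr9:86581363-86695914.

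RefSeq promoter windows, running from 250 bases before to 50 bases after an annotated start, were found for 8 of the 10 genes, the others being Hmox1 and Gsr. They were searched on both strands for TGACNNNGC, the core letters of the antioxidant response element, and for TGANTCA, the letters of an AP-1-type site, which can lie inside the longer motif. Among all 32851 windows, 12.4% held the first and 7.81% the second. Of the 27025 genes with a window, 14% and 8.97% had a match in any of their windows. The sequences below are 120 bases before the start (for Me1 also the first 5 after it) of the 4 members that were lower in co-culture, and of Nqo1, which was higher. Each runs 5′ to 3′ on the gene's own strand, with capitals marking the matches; a match on the opposite strand appears as its reverse complement.
Srxn1, chr2:152105404-152105523, plus strand: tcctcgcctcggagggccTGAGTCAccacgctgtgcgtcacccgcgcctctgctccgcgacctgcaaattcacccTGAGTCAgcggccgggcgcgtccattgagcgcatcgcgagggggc
Txnrd1, second of its 3 starts, chr10:82859086-82859205, plus strand: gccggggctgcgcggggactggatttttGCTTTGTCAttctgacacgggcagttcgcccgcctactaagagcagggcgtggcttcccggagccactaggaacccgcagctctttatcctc
G6pdx, chrX:74428881-74429000, minus strand: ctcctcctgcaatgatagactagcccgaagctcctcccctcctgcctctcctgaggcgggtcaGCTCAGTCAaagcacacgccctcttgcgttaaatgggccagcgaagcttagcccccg
Me1, chr9:86695910-86696034, minus strand: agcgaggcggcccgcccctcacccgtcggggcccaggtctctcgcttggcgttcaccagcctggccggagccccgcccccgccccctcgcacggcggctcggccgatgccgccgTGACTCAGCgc
Nqo1, chr8:107403206-107403325, minus strand: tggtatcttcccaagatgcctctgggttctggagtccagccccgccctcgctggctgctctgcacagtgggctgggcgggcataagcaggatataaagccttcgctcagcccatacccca

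Srxn1 held the AP-1-type letters at 2 places, at positions -102 to -96 and -45 to -39 counted from its start. It held the longer motif once after the start, at positions 29 to 37 on the opposite strand. The AP-1-type match at positions -45 to -39 is followed by GC. The stretch TGAGTCAGC there differs from TGACNNNGC only in G for C, and such variants were not searched. Txnrd1 held TGACAAAGC at positions -92 to -84 and G6pdx held TGACTGAGC at positions -57 to -49, both on the opposite strand. Over its 3 windows Txnrd1 had only this 1 match. Me1 held TGACTCAGC across its first annotated start, at positions -6 to 3, a stretch that contains both motifs. The window of its other start held no match. No match was found in the windows of Nqo1, Tkt and Taldo1, and Pgd had 1 match of the longer motif, at positions 4 to 12 of its second start. A match describes letters only, and response elements further away lie outside these windows. Across the tested genes with a window, the longer motif was present for 18.0% of the 1464 genes called lower, 15.4% of the 1137 called higher and 16.7% of the 5551 not called. The AP-1-type letters were present for 5.6%, 7.3% and 5.48% of the same groups.

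Levels are in FPKM as deposited, a unit that corrects fragment numbers for gene length and library size. Library totals, recovered from the values, were 29603755 to 37612585 reads in co-culture and 36119750 to 38357563 reads alone, and each member had 988 to 9831 reads in every library. The fibroblast and preadipocyte markers were high, with 3383 to 3433 summed FPKM over 8 genes in co-culture and 3159 to 3271 alone, and 9 adipocyte markers summed to 242 to 253 FPKM in co-culture and 271 to 291 alone. Lpl and Fabp4 made up nearly all of the adipocyte sum, while Adipoq had at most 1 read in any library. Markers of endothelium (0.156 to 0.298 summed FPKM in co-culture, 0.160 to 0.283 alone) and epithelium (0.0270 to 0.0839 and 0.0118 to 0.0539) were near 0. Of 8 macrophage markers, Cd14 (12.9 ± 1.38 FPKM in co-culture, 13.8 ± 1.61 alone) and Cd68 (3.71 ± 0.193 and 3.75 ± 0.500) made up most of the sum of 15.3 to 18.4 FPKM in co-culture and 17.1 to 20.7 alone, while Adgre1 had 2 reads over all 6 libraries. Lyz2 from the same list had 47 reads in co-culture against 149 alone. Reads of 6 erythroid genes numbered 0 to 111 in co-culture, with 0 in replicate 1, and 104 to 248 alone, and Hbb-bs and Hba-a1 were called lower (1 of them without co-culture replicate 2 or when any 1 library of cells alone was left out). The part of Lyz2 and of the erythroid reads in the results was not tested. The labels do not say whether replicates were separate cultures, so the p-values cover only how these 3 and 3 libraries vary, and that variation may be technical.

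Co-culture was compared with cells alone by limma on log2(FPKM + 1), and a gene was called where its p, adjusted by Benjamini-Hochberg over all 10055 tested genes, was below 0.05. Of the 10 members, 4 were called lower in co-culture (Srxn1, G6pdx, Txnrd1 and Me1), 1 was called higher (Nqo1) and 5 were not called. Over all tested genes 17.9% were called lower and 13.9% higher, 31.8% in all, so calls were common among genes of any kind. The groups did not overlap for 7 members, against 46.1% of all tested genes. Of these, 5 lay lower in co-culture (24.8% of all tested genes did) and 2 higher (21.3%). The members' median log2 change was -0.05, beside -0.0037 over all tested genes, and their median absolute change was 0.17, beside 0.10. The 5 called changes lay between 1.17-fold and 1.36-fold. Of all called genes, 10.7% changed more than Srxn1, 34.4% more than G6pdx, 48.7% more than Nqo1, 56.0% more than Me1 and 57.9% more than Txnrd1. In such bulk libraries a lower level can come from fewer cells that express a gene or from less RNA in each cell, and these cannot be told apart.

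**Figure D1:**
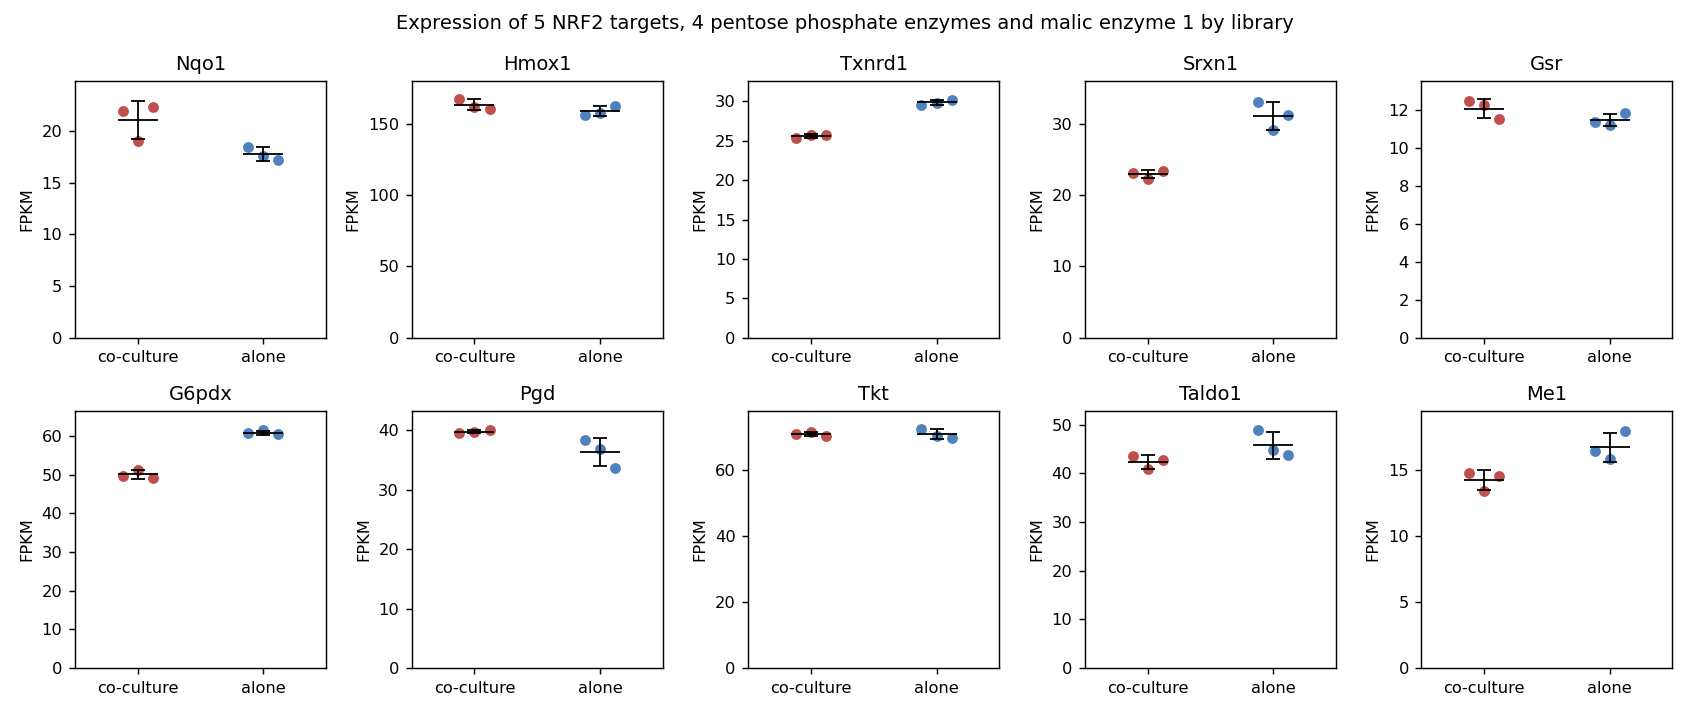
FPKM of the 10 genes (vertical axes from 0) in the 3 co-culture libraries (red, left) and the 3 libraries of cells alone (blue, right), with bars for the mean and SD. The groups lie apart for Srxn1, Txnrd1, G6pdx, Me1 and Taldo1 (lower in co-culture) and for Nqo1 and Pgd (higher), and mix for Hmox1, Gsr and Tkt.

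**Figure D2:**
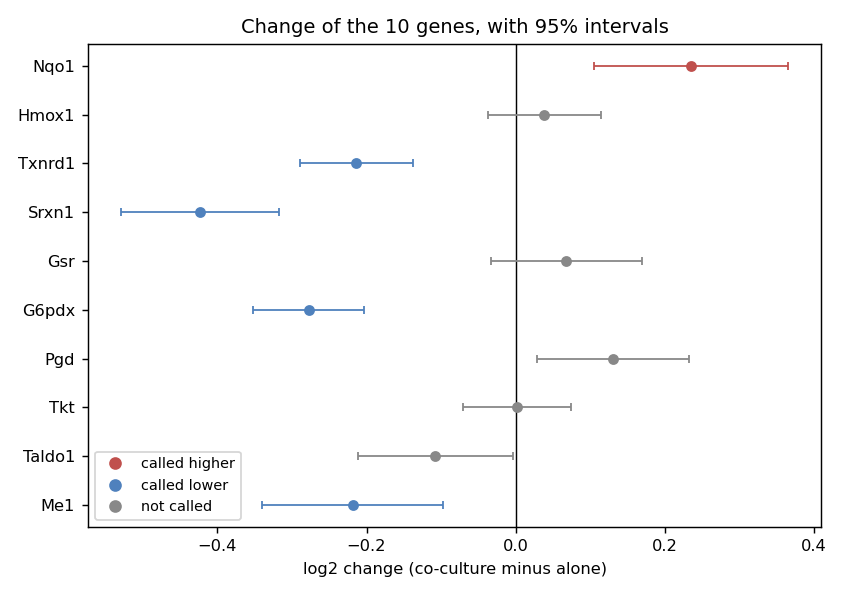
Log2 change of each gene, co-culture minus alone, on the log2(FPKM + 1) scale (horizontal axis), with 95% intervals from limma; red marks genes called higher, blue genes called lower and grey genes not called. Srxn1 has the largest fall (-0.42) and Nqo1 the largest rise (0.24).

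The NRF2 targets moved in different directions. Srxn1 encodes sulfiredoxin, which repairs overoxidised peroxiredoxins. It was at 23.1, 22.3 and 23.4 FPKM in co-culture replicates 1 to 3, against 33.0, 29.1 and 31.2 FPKM in cells alone. Every co-culture library was below every library of cells alone, and co-culture fell to a mean of 22.9 ± 0.550 FPKM against 31.1 ± 1.98 alone (SD, n = 3 each; 1.36-fold lower, log2 change -0.42, SE 0.0479, limma adjusted p = 1.22e-04). Txnrd1 encodes the cytosolic thioredoxin reductase, a selenoprotein that keeps thioredoxin reduced with NADPH. Its values were 25.4, 25.7 and 25.8 FPKM in co-culture and 29.6, 29.8 and 30.2 FPKM alone, with no overlap. The fall was 1.17-fold (log2 change -0.21, SE 0.0343, limma adjusted p = 0.00112), and the replicates varied by 0.841% in co-culture and 1.05% alone, no more than read counting alone would give (1.67% and 1.49%).

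Nqo1 encodes a quinone reductase and is among the most used reporters of NRF2 activity. It had 21.9, 19.0 and 22.3 FPKM in co-culture, against 18.5, 17.5 and 17.2 FPKM alone. Co-culture replicate 2 stood low in its group but still above every library of cells alone. The mean was 1.19-fold higher in co-culture (21.1 ± 1.83 against 17.7 ± 0.679 FPKM, log2 change 0.24, SE 0.0590, limma adjusted p = 0.0125), with a spread of 8.66% in co-culture where counting would give 2.02%. The call was lost without co-culture replicate 3 (adjusted p = 0.0540).

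Hmox1 encodes haem oxygenase 1, which breaks down haem, and had the highest level of the 10 genes. It was at 167, 162 and 161 FPKM in co-culture and at 156, 158 and 163 FPKM alone, with overlapping groups (limma adjusted p = 0.421). The 95% interval of its ratio ran from 0.974 to 1.08. Gsr encodes glutathione reductase, which regenerates reduced glutathione, and had the lowest level. It was at 12.5, 12.3 and 11.5 FPKM in co-culture and 11.4, 11.2 and 11.9 FPKM alone, again overlapping (limma adjusted p = 0.282, interval of the ratio 0.977 to 1.12). With 3371 reads in co-culture and 3452 alone, Gsr was also the member with the fewest reads. Among the NRF2 targets, then, 2 of 5 fell, 1 rose and 2 did not pass the test. Their summed level overlapped between the groups (241 to 250.3 FPKM in co-culture, 245 to 253 alone). Most of that sum was Hmox1 (161 to 167 FPKM in co-culture, 156 to 163 alone). The overlap therefore says little about the other targets.

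In the oxidative branch of the pentose phosphate pathway the entry enzyme was called lower and the next NADPH-forming enzyme was not called. G6pdx encodes glucose-6-phosphate dehydrogenase, which commits glucose 6-phosphate to the pathway and makes its first NADPH. It had 49.8, 51.3 and 49.2 FPKM in co-culture, against 60.8, 61.5 and 60.5 FPKM alone. All 3 co-culture libraries were lower, by 1.22-fold on average (50.1 ± 1.11 against 60.9 ± 0.505 FPKM, log2 change -0.28, SE 0.0335, limma adjusted p = 1.94e-04). Pgd encodes 6-phosphogluconate dehydrogenase, which makes the second NADPH. It had 39.6, 39.7 and 40.1 FPKM in co-culture and 38.4, 36.8 and 33.7 FPKM alone. Its co-culture values all lay above those of cells alone, and the replicates varied by 0.650% in co-culture and 6.49% alone. The limma adjusted p was 0.0523, just outside the threshold, with an interval of the ratio of 1.02 to 1.17. It was 0.0156 without alone replicate 1 and between 0.0852 and 0.174 without each of the other libraries, and the log2 change of 0.13 became 0.08 without alone replicate 3.

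Within a library, the level of G6pdx over that of Pgd was 1.26, 1.29 and 1.23 in co-culture and 1.59, 1.67 and 1.79 in cells alone. This pair, like the ratios below, was chosen after the values were seen. A two-sided exact permutation test of 3 libraries against 3 cannot go below 0.1, which is the value that any such separation gives.

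In the non-oxidative branch, which converts pentose phosphates back to glycolytic sugars, neither Tkt nor Taldo1 was called. Tkt, encoding transketolase, was at 71.1, 71.5 and 70.4 FPKM in co-culture and at 72.6, 70.3 and 69.8 FPKM alone. Its groups overlapped, and the interval of its ratio was the narrowest of the 10 members on the log2 scale, from 0.952 to 1.05 (limma adjusted p = 0.969). Taldo1, encoding transaldolase, had 43.6, 40.8 and 42.7 FPKM in co-culture and 48.9, 44.7 and 43.7 FPKM alone. The co-culture values were all below those of cells alone but close to the nearest of them, and the difference was not called (limma adjusted p = 0.106, interval of the ratio 0.864 to 0.997). Over the 4 enzymes, the summed level was 202 to 204 FPKM in co-culture and 208 to 221 FPKM alone.

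Me1 encodes the cytosolic malic enzyme, which makes NADPH while turning malate into pyruvate and is known as a lipogenic enzyme in adipose tissue. It had 14.7, 13.4 and 14.5 FPKM in co-culture, against 16.4, 15.8 and 17.9 FPKM alone. The groups did not overlap, and co-culture was 1.18-fold lower (14.2 ± 0.742 against 16.7 ± 1.09 FPKM, log2 change -0.22, SE 0.0547, limma adjusted p = 0.0123). The call held without any one library (adjusted p at most 0.0464) and was lost when genes of all levels were tested (0.0728).

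The order of the levels was nearly the same in both groups. From high to low in co-culture it ran Hmox1, Tkt, G6pdx, Taldo1, Pgd, Txnrd1, Srxn1, Nqo1, Me1 and Gsr, and in cells alone Srxn1 stood above Txnrd1. In co-culture only the neighbours Srxn1 and Nqo1 overlapped in range. In cells alone the overlapping neighbours were Srxn1 with Txnrd1 and Nqo1 with Me1. Hmox1 had 2.30 times the level of Tkt in co-culture and 2.24 times alone. Against all tested genes, Hmox1 ranked at the 96.7th percentile of mean level, Tkt at 92.0, G6pdx at 89.5 and Gsr at 57.9.

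Srxn1 over Nqo1, one target that fell and one that rose, was 1.05, 1.17 and 1.04 in co-culture and 1.79, 1.66 and 1.82 in cells alone. Txnrd1 over Gsr, the reductases of the thioredoxin and glutathione systems, was 2.03, 2.10 and 2.23 in co-culture and 2.60, 2.65 and 2.55 alone. Tkt over Taldo1 went the other way, with 1.63, 1.75 and 1.65 in co-culture and 1.49, 1.57 and 1.60 alone. Ratios within a library do not depend on how the libraries were scaled to each other, and each shows only that the pair changed unequally.

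**Figure D3:**
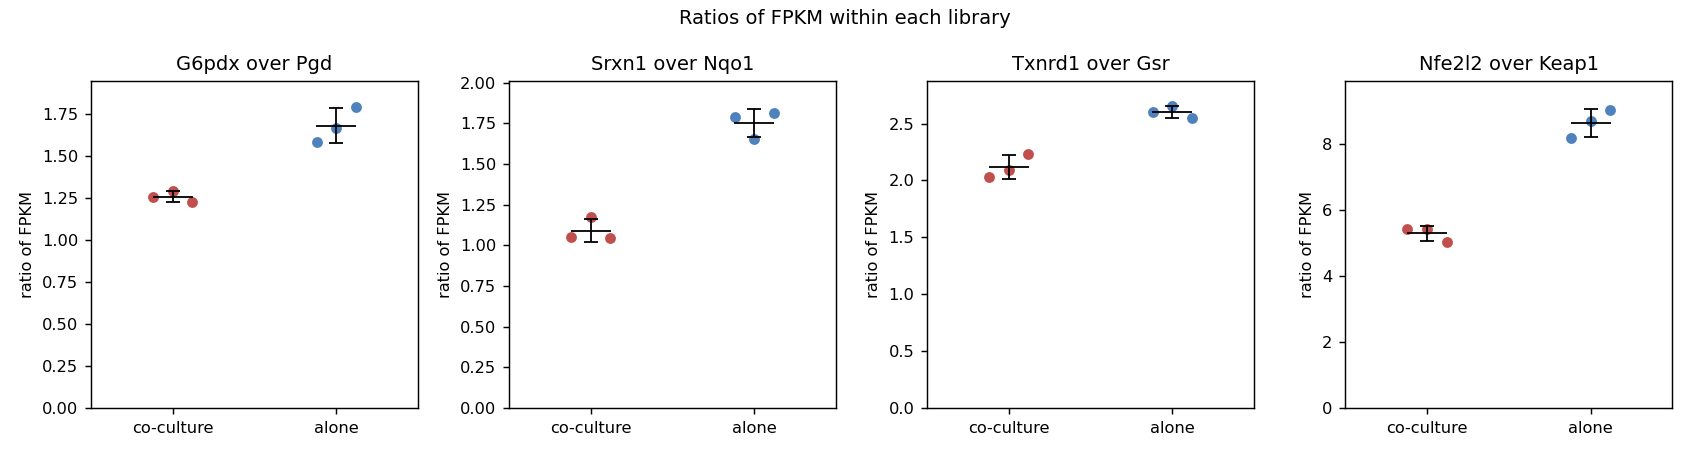
Ratios of FPKM within each library (vertical axes from 0) for 4 pairs of genes, co-culture in red on the left and cells alone in blue on the right, with bars for the mean and SD. Each of these 4 ratios is lower in all 3 co-culture libraries, for example 5.29 ± 0.225 against 8.63 ± 0.429 for Nfe2l2 over Keap1.

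The gene for NRF2 itself fell by a larger fold than any member. Nfe2l2 had 59.1, 58.8 and 59.2 FPKM in co-culture, against 90.5, 87.9 and 89.5 FPKM alone (1.51-fold lower, log2 change -0.59, SE 0.0318, limma adjusted p = 1.07e-06). Keap1, its inhibitor, was at 10.9, 10.9 and 11.8 FPKM in co-culture and 11.1, 10.1 and 9.92 FPKM alone, with overlapping groups (limma adjusted p = 0.182). The mRNA levels say nothing of NRF2 protein, which is controlled mainly by its degradation. Bach1, the repressor, was 1.27-fold higher, with 15.9, 15.7 and 14.7 FPKM in co-culture and 11.4, 11.99 and 13.2 FPKM alone (limma adjusted p = 0.00188). The 3 small MAF genes, which encode NRF2's partners, fell, with log2 changes of -0.26 for Mafg (limma adjusted p = 0.00191), -0.25 for Maff (0.0468) and -0.38 for Mafk (0.00170). Mafk lay close to the mean of 1 FPKM needed for testing (1.04 ± 0.0303 FPKM in co-culture, 1.66 ± 0.153 alone). At that level the log2 change understates the fall of Mafk, which was 1.60-fold. Nfe2l1, encoding the related factor NRF1, was 1.20-fold lower (89.4 ± 2.41 FPKM in co-culture, 107 ± 2.62 alone, limma adjusted p = 4.36e-04). Of 12 tested regulators of NRF2, 2 rose and 6 fell, with a median log2 change of -0.10. Over all tested genes 13.9% were called higher and 17.9% lower, the shares to set beside this list and those below. The other genes called were Rbx1 (log2 change 0.12) and Gsk3b (-0.17, with overlapping groups). The 2 that rose numbered 1 when any library other than alone replicate 1 was left out, and the 6 that fell numbered 4 to 6.

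Genes of glutathione and thioredoxin metabolism went in both directions. Of 18 tested genes 2 rose and 7 fell, and the median log2 change was -0.05. Slc7a11, the cystine importer that supplies glutathione synthesis, had 1.58, 1.99 and 1.35 FPKM in co-culture and 3.62, 4.21 and 4.24 FPKM alone, a 2.46-fold fall (limma adjusted p = 3.73e-05). Its partner chain Slc3a2 was 1.16-fold lower (7.00e-04). Gclc, the catalytic subunit of the first enzyme of glutathione synthesis, was 1.26-fold lower (19.9 ± 1.05 FPKM in co-culture, 25.1 ± 0.728 alone, limma adjusted p = 5.56e-04). The groups overlapped for its modifier subunit Gclm (8.04 ± 0.379 FPKM in co-culture, 8.43 ± 0.274 alone, limma adjusted p = 0.375). The peroxiredoxin gene Prdx6 fell 1.16-fold (0.00110), and the others that fell were Prdx3, Txn2 and Txnrd3 (log2 changes -0.17, -0.13 and -0.39). The 2 genes that rose were the glutaredoxin gene Glrx (log2 change 0.26) and the glutathione peroxidase gene Gpx1 (0.14). They numbered 1 without co-culture replicate 1 or 3 or alone replicate 2 or 3. The 7 that fell numbered 6 when any library other than alone replicate 2 was left out. Of these genes Txn2 lay nearest to the threshold (limma adjusted p = 0.0454).

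A list of further NRF2 targets left out the glutathione and thioredoxin genes above, among them Slc7a11, Gclc and Gclm, whatever their link to NRF2. Of its 18 tested members, 4 rose and 1 fell, with a median log2 change of 0.06. The glutathione transferase gene Gstm1 was 1.23-fold higher (92.4 ± 3.19 FPKM in co-culture, 74.9 ± 2.86 alone, limma adjusted p = 3.92e-04), and the aldo-keto reductase gene Akr1b8 was 1.13-fold higher (0.0142, and 0.0602 without co-culture replicate 3 and 0.0524 without alone replicate 3). Ugt1a6a and Gsta4 also rose (log2 changes 0.37 and 0.14), Ugt1a6a with overlapping groups. The call of Ugt1a6a was lost without each library except co-culture replicate 1 (adjusted p 0.0845 to 0.149), and its log2 change was 0.24 without co-culture replicate 2. Gstm1, Ugt1a6a and Gsta4 have close relatives in the genome, so their reads may have been shared out among several genes. Abcc1, which exports glutathione conjugates, was 1.31-fold lower (15.0 ± 0.229 FPKM in co-culture, 19.6 ± 0.561 alone, limma adjusted p = 9.38e-05). The 4 that rose numbered 2 without co-culture replicate 2 or alone replicate 2, and 1 without co-culture replicate 3 or alone replicate 3.

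Of the other pentose phosphate and ribose genes, those that fell act after the oxidative steps. Rpia, the isomerase that forms ribose 5-phosphate, had 3.60, 3.90 and 3.73 FPKM in co-culture and 5.82, 5.09 and 5.93 FPKM alone (1.5-fold lower, limma adjusted p = 3.10e-04). Rpe, the epimerase beside it, was 1.24-fold lower (7.02e-04), and Prps1, which makes phosphoribosyl pyrophosphate for nucleotides, was 1.26-fold lower (0.00134). Prps2, from the same list, lay higher in every co-culture library than in any library of cells alone, but was not called. It was at 4.81 ± 0.296 FPKM in co-culture and 4.24 ± 0.0884 alone (limma adjusted p = 0.0660). Pgls, the lactonase between G6pdx and Pgd, was at 24.0 ± 0.547 FPKM in co-culture and 24.3 ± 0.694 alone (limma adjusted p = 0.802). H6pd, the enzyme of the endoplasmic reticulum that carries out the first oxidative steps there, was 1.10-fold higher (20.8 ± 0.150 FPKM in co-culture, 18.9 ± 0.879 alone, limma adjusted p = 0.0327). That call was lost without each library except alone replicate 2 (adjusted p 0.0708 to 0.0889). In all, 1 of the 7 tested genes rose and 3 fell (median log2 change -0.01), and 0 rose without co-culture replicate 2 or 3 or alone replicate 1 or 3. The 1 gene called higher without co-culture replicate 1 was not H6pd but another of the tested genes. The list's other 4 genes, Tktl1, Tktl2, Rbks and Tigar, were below the mean of 1 FPKM needed for testing.

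A list of other genes linked to NADPH was likewise mixed, with 1 of 10 tested genes higher and 3 lower (median log2 change -0.05). How much NADPH each enzyme makes in these cells was not measured. Idh1, the cytosolic isocitrate dehydrogenase, was at 210.4, 195 and 209 FPKM in co-culture and 189, 173 and 179 FPKM alone, the highest level on this list, and rose 1.14-fold (limma adjusted p = 0.00965). Nadk, the kinase that forms cytosolic NADP, fell 1.18-fold (23.2 ± 0.0773 FPKM in co-culture, 27.5 ± 0.293 alone, limma adjusted p = 7.19e-04). The mitochondrial folate enzymes Mthfd2 (1.83-fold lower) and Aldh1l2 (10.8, 11.7 and 9.76 FPKM in co-culture, 17.9, 20.1 and 20.2 FPKM alone, 1.81-fold lower) had the largest falls here (limma adjusted p = 6.21e-07 and 1.36e-05).

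**Figure D4:**
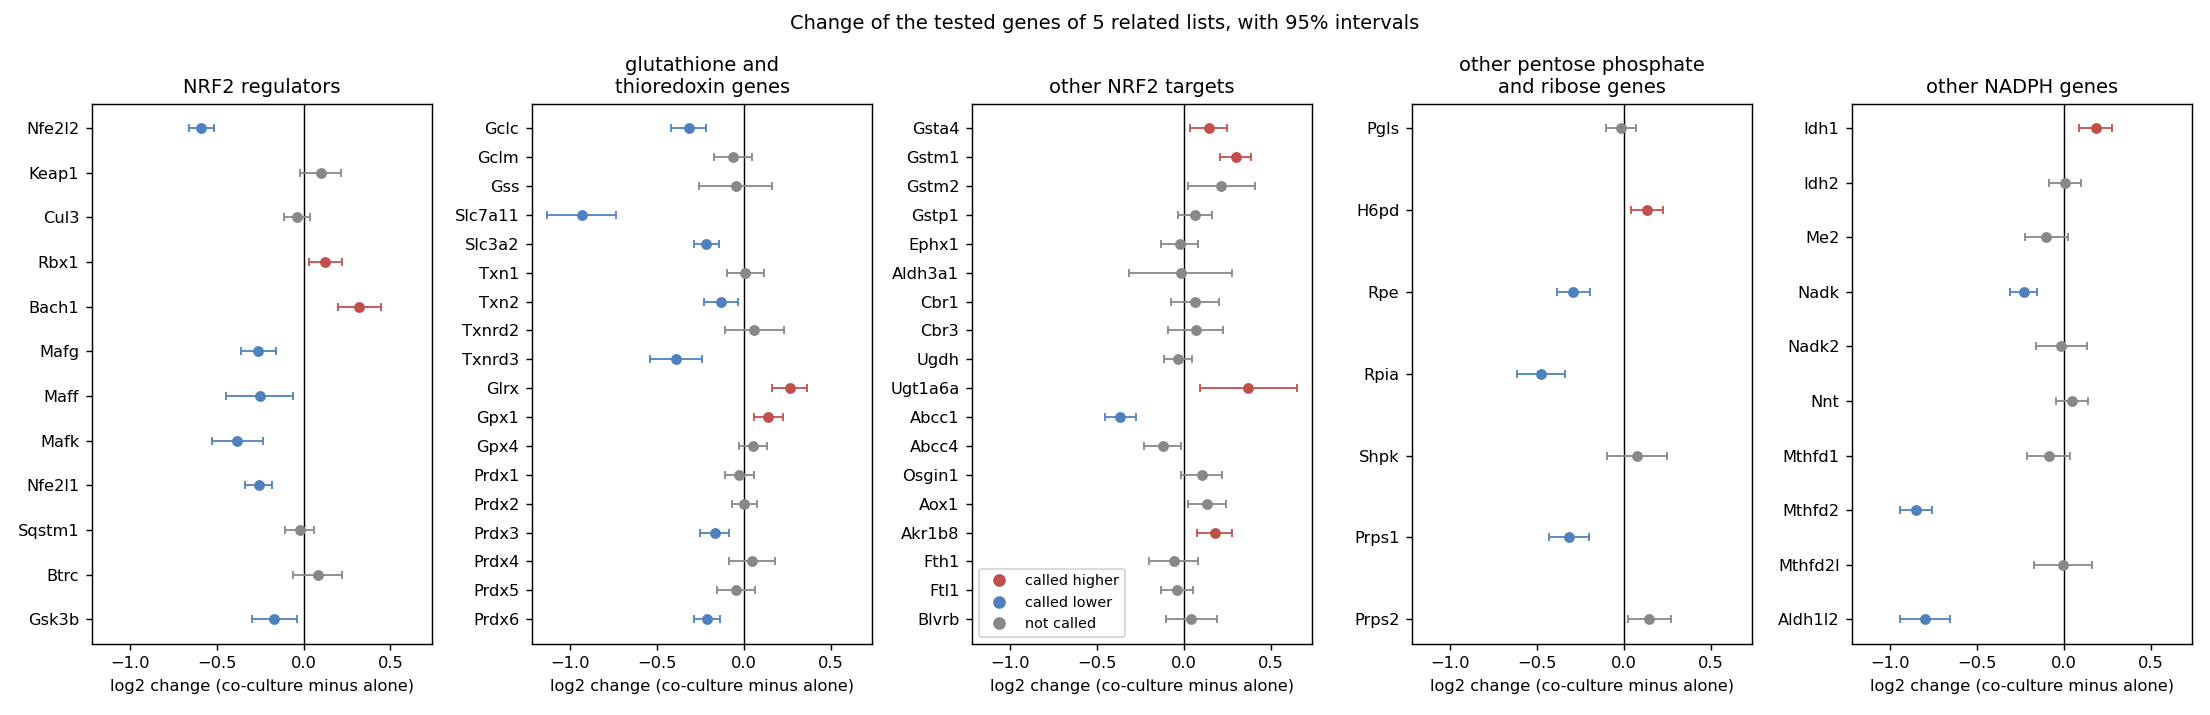
Log2 change, co-culture minus alone (horizontal axis), of the tested genes of 5 lists, with 95% intervals from limma; red marks genes called higher, blue genes called lower and grey genes not called. Slc7a11, Mthfd2, Aldh1l2 and Nfe2l2 lie furthest to the left, at -0.93, -0.85, -0.80 and -0.59.

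Smaller lists surround single members. With 17.9% of all tested genes called lower and 13.9% higher, a few calls in a short list are common. Beside Hmox1, 11 genes of haem synthesis and breakdown gave 1 call, a fall of Cpox, the coproporphyrinogen oxidase gene (7.42 ± 0.139 FPKM in co-culture, 10.1 ± 0.258 alone, limma adjusted p = 9.77e-05). Without alone replicate 1, 2 genes of that list were called higher, and without co-culture replicate 2, 1 gene was. Beside Txnrd1, 2 of 7 genes of selenoprotein synthesis fell, Secisbp2 (3.98 ± 0.0817 FPKM in co-culture, 4.98 ± 0.0645 alone, limma adjusted p = 0.00262) and Sephs2 (0.0394), the second call being lost without each library except co-culture replicate 1. Beside Me1, 2 of 9 tested lipogenic genes fell. They were the desaturase genes Scd1 and Scd2 (for Scd2, 223 ± 12.2 FPKM in co-culture and 247 ± 4.30 alone, limma adjusted p = 0.0220), of which Scd2 was not called without co-culture replicate 2 or alone replicate 3. Without alone replicate 2, 1 gene of this list was called higher, and without alone replicate 1, 3 genes were called lower. The median log2 change of the lipogenic genes was -0.03, beside 0.05 for the haem list and -0.03 for the selenoprotein list.

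Of the 8 fibroblast and preadipocyte markers 4 rose (Dlk1, Pdgfra, Pdgfrb and Vim) and 2 fell (Thy1 and Col3a1), with a median log2 change of 0.13. Col1a2 was not called (823 ± 11.5 FPKM in co-culture, 774 ± 7.50 alone, limma adjusted p = 0.0824). With 1 library left out, the call of Vim held only when that was co-culture replicate 2 or alone replicate 1. The 4 numbered 2 without co-culture replicate 3, 3 without co-culture replicate 1 or alone replicate 2 or 3, and 5 without alone replicate 1. The 2 that fell numbered 1 without co-culture replicate 1. Only Lpl (190.5 ± 6.89 FPKM in co-culture, 226 ± 8.34 alone, called lower) and Fabp4 (58.2 ± 0.740 and 53.4 ± 3.04, limma adjusted p = 0.0508) of 9 adipocyte markers reached the filter, and 1 of them was called higher without alone replicate 1. Whether these shifts have a part in the changes of the members was not tested.

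The 3 tested genes whose profile over the 6 libraries lay nearest to that of Srxn1 were Ahr, Clcf1 and Ss18l1, at root mean square distances of 0.0238, 0.0264 and 0.0336 on the log2(FPKM + 1) scale. Ahr, the aryl hydrocarbon receptor gene, had 5.99, 5.53 and 6.05 FPKM in co-culture and 8.71, 7.86 and 8.13 FPKM alone. Nearest to Nqo1 were Hacd4, Mindy1 and Zfp821, at 0.0273, 0.0305 and 0.0336.

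Copies and overlaps bear on some members. G6pd2, a copy with 93.2% identity to G6pdx over 2332 bases, was at 0.0069 FPKM in co-culture and 0.0107 FPKM alone. The exons of G6pdx share 418 bases with Ikbkg on the opposite strand, which was at 5.53 FPKM in co-culture and 5.08 FPKM alone, and whether counting used strand is not given in the sources used here. Me1 shares 30 exon bases with the antisense gene A330041J22Rik (0.0337 FPKM in co-culture, 0.0144 alone). Me1 has 3 partial copies and Taldo1 has 1 among GENCODE M21 transcripts (98.5% to 99.0% and 94.7% identity), none of which was analysed here, and how reads shared between copies were counted is not stated either.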

How the data were processed

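RNA was measured in 6 libraries of 3T3-L1 cells. Per the labels' protocols, TRIzol was used for total RNA and the VAHTS Universal V6 kit for the libraries. Of software, fastp, HISAT2 and HTSeq are named in the submitters' processing notes, with mm10 as build and no versions. For the annotation, the strand setting and the treatment of human reads, the sources used here give no information. The FPKM values were made and deposited by the authors, and each of the 6 value columns carries the name of a sample, leaving 0 without one. The replicates are those that the labels number.

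Whole reads were recovered from the values: all 21436 genes resolved (tolerance 1e-06), with the scale set by the 1545 bp of the mitochondrial COX1 gene. The gene length this implies was whole (within 0.001 bp) for 99.1% of the 12053 genes having 100 reads or more. Read counts cover counting error only.

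The test was limma 3.58.1 in R 4.3.3 with a mean-variance trend, applied to log2(FPKM + 1) (difference: co-culture minus alone), with no block for the replicate numbers. It covered the 10055 genes whose mean over the libraries reached 1 FPKM, with Benjamini-Hochberg adjustment over all of them. A fold is the ratio of the group means in FPKM, whereas the log2 changes come from the fit and understate low genes. The fit was tested on simulated reads of the same genes. Alternatives were pseudocounts of 0.1 and 0.01, no filter, a filter at 5 FPKM, no trend, array weights, the replicate block, scaling by median ratios, quantiles or TPM, limma-voom on recovered reads, a threshold of 0.01 and leaving out each library. The members, the lists of 14 kinds (NRF2 regulators, glutathione and thioredoxin genes, other NRF2 targets, pentose phosphate and ribose, NADPH, haem, lipogenic, selenoprotein synthesis, and 6 sets of cell type markers; Blvrb is on both the haem list and that of other NRF2 targets) and the tests were chosen with earlier results of these data known. Beside the 10 members, a fixed set of 9 genes and up to 4 called genes per list by smallest p were named. So were the 2 highest marker genes and the 3 nearest profiles of 2 members. Further genes with values were chosen after their values were seen. They were Mafg, Maff, Rbx1, Gsk3b, Txnrd3, Prdx3, Txn2, Glrx, Gpx1, Gsta4, Prps2, Pdgfrb, Lyz2, Adipoq, Adgre1 and the copies and overlapping genes. Copies of the members were sought with BLAST+ 2.17.0 (identity of at least 90% over at least 200 bases). Promoter sequences are from RefSeq on GRCm38.p6.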

Additional observations from a re-analysis of the deposited data

How the results depend on the processing

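The falls of Srxn1, Txnrd1 and G6pdx were called under all 18 alternatives, and that of Me1 under 16, with 0.0728 as its adjusted p without a filter on low values and 0.0123 against a threshold of 0.01. The number of members called lower was 3 under those 2 settings and 4 in every other. The number of members called higher, 1 as reported, was 0 without a filter (Nqo1 at adjusted p 0.0871) and at the threshold of 0.01. It was 2 with Pgd added at a filter of 5 FPKM, TPM scaling, quantile scaling, array weights and limma-voom (adjusted p 0.0184 to 0.0466). It ranged from 0 to 2 over the libraries left out in turn, 0 without co-culture replicate 3 and 2 without alone replicate 1. Tkt, whose change was 0.0020, took the opposite sign with median-ratio scaling (-0.0061), TPM scaling (-0.0045) and without co-culture replicate 2 (-0.0032), alone replicate 2 (-0.0045) or alone replicate 3 (-0.0089), in a range of -0.0089 to 0.0192 over the libraries left out. Pgls did so with quantile scaling (0.0138) and without alone replicate 1 (range -0.0326 to 0.0071). Cd68 did so with array weights (0.0329) and without co-culture replicate 1 or 3 or alone replicate 1 or 3 (range -0.0981 to 0.0435). None of these was called, and the cause was not tested.

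Over all genes, 1402 were called higher and 1799 lower. At a threshold of 0.01 these were 635 and 1073, and without each library in turn 925 to 1419 higher and 1374 to 1753 lower. The replicate numbers did not pair the samples (correlation across genes of same-numbered deviations -0.044, 0.109 and -0.083). The fit with the replicate block called 1258 genes higher and 1640 lower, and 1 and 4 members. Of 180 values for the members, 164 kept their direction and side of the threshold, and of 817 for the other named genes, 731. Depth limits the members little, at 988 reads or more per library.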
